A study of Mus musculus with 6 samples.

Results

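The integrated stress response and the serine pathway it feeds were followed through 10 genes in cultured mouse melanocytes, which make pigment and arise from the neural crest. The 10 genes are a list by pathway, with no cut on measured values, that was drawn up with earlier results of these data known: Phgdh, Psat1, Psph, Shmt1, Shmt2, Mthfd2, Asns, Atf4, Ddit3 and Chac1. All 10 were found among the 22180 genes of the array table, each through 1 probe set that carries that gene's symbol alone. RNA of 6 samples was hybridised to 1-colour Affymetrix arrays, 3 of each of 2 immortal lines. One line carries a LacZ insertion in 1 copy of Sox10, a transcription factor gene of neural crest and glial cells (Sox10LacZ/+; Ink4a-Arf null, from mice of 3 days of age). The comparison line, melan-Ink4a-Arf-1, also labelled melan-a, has no such insertion named in its labels and is called wild type below. By their labels both lines lack Ink4a-Arf (Cdkn2a tm1RDp/tm1RDp in the wild-type line). Which of the 2 names of the wild-type line is right is not settled here. Both lines come from mice backcrossed to C57BL/6J. Both grew in 10% serum and 10% CO2 with cholera toxin at 200 pM and a phorbol ester at 200 nM. Each genotype is 1 cell line, so genotype and line cannot be told apart, and the labels do not say whether replicates are separate cultures, so the spread behind each p-value is that between arrays of 1 line and may be technical.

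Cells that run short of amino acids, or whose endoplasmic reticulum is overloaded with unfolded protein, activate kinases that phosphorylate the initiation factor eIF2. Most translation then slows, while the transcription factor ATF4 is translated more, so that the activity of ATF4 is set to a large part above the level of its own mRNA. ATF4 and its partners bind C/EBP-ATF response elements and switch on genes for amino acid synthesis and uptake, among them the serine synthesis pathway, which turns a glycolytic intermediate into serine and passes carbon units on to folate. An array reads mRNA and not translation, and serine synthesis had no measurement of its own here.

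Promoter sequences are shown for the gene with the largest difference between the lines, Phgdh, and for Chac1 and Asns, which hold a C/EBP-ATF response element in the window searched. They are the 250 bases before the annotated start in the RefSeq annotation of mouse build GRCm38.p6, written 5′ to 3′ on the strand of the gene. Capitals mark the matches to the motifs described after the sequences. Phgdh lies on the minus strand (chr3:98339970-98340219), Chac1 on the plus strand (chr2:119350992-119351241) and Asns on the minus strand (chr6:7693210-7693459).
Phgdh: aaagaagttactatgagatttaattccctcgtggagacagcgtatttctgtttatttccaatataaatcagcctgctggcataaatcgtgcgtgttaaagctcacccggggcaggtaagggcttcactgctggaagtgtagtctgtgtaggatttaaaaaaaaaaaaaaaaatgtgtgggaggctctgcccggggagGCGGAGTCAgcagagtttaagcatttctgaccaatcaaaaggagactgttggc
Chac1: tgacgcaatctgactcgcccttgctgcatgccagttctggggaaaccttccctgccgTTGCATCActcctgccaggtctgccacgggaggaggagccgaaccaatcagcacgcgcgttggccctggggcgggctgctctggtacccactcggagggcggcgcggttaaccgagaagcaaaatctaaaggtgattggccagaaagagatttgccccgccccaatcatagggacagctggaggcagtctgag
Asns: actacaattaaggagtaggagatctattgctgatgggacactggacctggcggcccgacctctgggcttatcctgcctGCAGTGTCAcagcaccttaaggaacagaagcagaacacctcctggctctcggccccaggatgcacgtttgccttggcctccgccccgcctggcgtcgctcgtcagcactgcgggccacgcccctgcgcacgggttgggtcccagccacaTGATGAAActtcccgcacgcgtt

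The search covered both strands from 250 bases before to 50 after each start, in 11 promoters of the 10 genes (Psat1 has an alternative start). The C/EBP-ATF response element, TGATGNAA, was found in 2 of the 11, against 3.97% of 32851 mouse promoters of the same length. In Asns it reads TGATGAAA at positions -23 to -16 from the start. In Chac1 it lies on the opposite strand and reads TTGCATCA at -193 to -186. The core of the antioxidant response element that NRF2 binds, TGACNNNGC, was found in 3 of the 11 and in 12.4% of all promoters. In Phgdh it reads GCGGAGTCA at -53 to -45, in Asns GCAGTGTCA at -172 to -164, and in Psph GCGACGTCA at 5 to 13 after the start. The cAMP response element TGACGTCA (1.79% of all promoters) and the SOX core ACAAAG (18.7%) were found in 0 of the 11. The matches in these promoters did not overlap one another. A match says that these letters are present, not that a factor binds there.

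Of the serine and one-carbon genes, 3 rose and 1 fell. Phgdh rose 1.92-fold, Shmt2 rose 1.34-fold, Mthfd2 rose 1.22-fold and Psph fell to 74.0% of wild type in the Sox10LacZ/+ line. Among these genes only Phgdh passed whichever array was left out. Mthfd2 did not pass with the median difference of its chromosome removed (adjusted p 0.744 in limma). Psat1, Shmt1, Asns, Atf4, Ddit3 and Chac1 did not pass the test. That is 3 of the 10 higher and 1 lower, where a gene passes at an adjusted p below 0.05 in limma over all genes; over all 22180 genes 7.46% passed as higher and 5.92% as lower, or 13.4% in all. All 10 genes lay above the 40th percentile of signal in both lines, and among the 14668 genes whose mean lay above it the shares were 10.5% higher and 8.23% lower. The median log2 difference of the 10 genes was 0.06, that of all genes 0.00, and none of the 10 differed 2-fold (0 of 10, against 3.53% of all genes that passed and differed at least 2-fold).

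**Figure D1:**
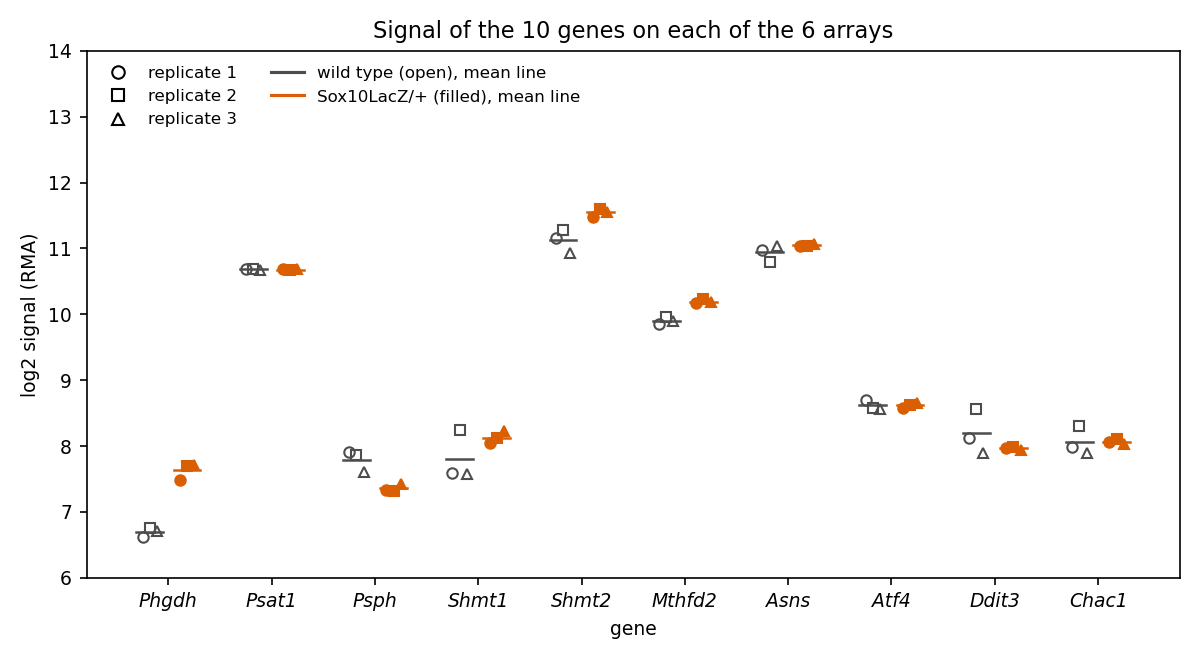
Log2 signal (RMA) of the 10 genes on each of the 6 arrays, with open dark symbols for wild type, filled orange symbols for the Sox10LacZ/+ line, 1 symbol shape per replicate number and a line at each mean. The 3 Phgdh values of the Sox10LacZ/+ line sit near 7.6 and those of wild type near 6.7, the Psat1 values coincide, and wild-type replicate 2 is the high point of Shmt1, Ddit3 and Chac1. Levels of different genes come from different probe sets and are not comparable.

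Some facts of the whole series bear on these genes. Array medians lay between 5.72 and 5.78 on the log2 scale. Wild-type replicate 2 stood apart, in that 261 genes deviated 2-fold or more there from the average of replicates 1 and 3, against 0 to 54 genes on each of the other 5 arrays. Sox10 itself had signals of 9.73 ± 0.05 in the Sox10LacZ/+ and 9.91 ± 0.10 in the wild-type line (mean ± SD, n = 3 each), a difference of -0.18 that did not pass (adjusted p 0.213), and Cdkn2a, the Ink4a-Arf gene, had 7.07 ± 0.08 and 7.16 ± 0.12 (difference -0.09, adjusted p 0.610), at percentiles 68.3 and 69.1 of signal, beside the Ink4a-Arf mutations that the labels give for both lines. The stretch of either transcript that its probe set reads was not analysed here. Of the markers measured, 2 of 12 melanocyte markers were higher and 5 lower, and 3 of 6 Schwann cell markers were lower. Higher were 3 of 10 fibroblast, 4 of 8 endothelial and smooth muscle and 1 of 6 leukocyte markers. In the endothelial and smooth muscle list, named after their values were seen, these were Acta2 (log2 difference 5.34), Tagln (0.94), Cnn1 (0.44) and Vwf (0.38). Pecam1, Cdh5, Kdr and Myh11 of that list did not pass. Of 7 keratinocyte markers 0 passed in limma (1 higher and 1 lower at an unadjusted p below 0.05). Without wild-type replicate 2, 4 melanocyte markers were higher and 5 lower, and 1 keratinocyte marker was higher. The counts of the other marker lists did not change, while over all genes 4222 passed against 2967 with all 6 arrays. With all 6 arrays, 7.46% of all genes passed as higher and 5.92% as lower, and among genes above the 40th percentile of signal 10.5% and 8.23%. The mean log2 signal of the fibroblast list ranged over arrays from 5.39 to 5.56 in wild type and from 6.55 to 6.56 in the Sox10LacZ/+ line. That of the melanocyte list ranged from 10.78 to 11.05 and from 10.43 to 10.47. Differences of single fibroblast markers ran from -0.30 to 5.92 with a median of 0.13, and 7 of the 10 did not pass. Those of melanocyte markers ran from -3.68 to 2.29 with a median of -0.24. Below the 40th percentile of signal lay 0 of 12 melanocyte markers in either line, and 5 of 10 fibroblast markers in wild type and 3 in the Sox10LacZ/+ line. The part of these marker differences in the results below was not tested.

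Serine is made from 3-phosphoglycerate in a chain of enzymes, and the genes for its steps did not move together. Phgdh encodes phosphoglycerate dehydrogenase, which commits the intermediate to serine (Entrez 236539; chromosome 3, 98313171 to 98339969, build GRCm38.p6). Its log2 signal was 6.61, 6.75 and 6.70 in wild-type replicates 1 to 3 and 7.49, 7.70 and 7.72 in those of the Sox10LacZ/+ line. Every Sox10LacZ/+ array lay above every wild-type array, by more than the range within either line (0.14 and 0.23). The log2 difference was 0.94 (SE 0.09, 95% confidence interval 0.74 to 1.15, adjusted p 0.00027). Phgdh passed with any 1 array left out (adjusted p 0.00043 to 0.00256), and its neighbourhood did not share the rise: the 100 nearest brighter genes on chromosome 3 had a median difference of -0.05, with 6 of them higher and 19 lower.

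Psat1 encodes phosphoserine aminotransferase, the next enzyme of the chain (Entrez 107272; chromosome 19, 15905123 to 15925059). It was the steadiest of the 10 genes. Wild-type and Sox10LacZ/+ arrays gave the same log2 signal to within 0.02: it was 10.69, 10.69 and 10.68 in the wild-type and 10.68, 10.67 and 10.68 in the Sox10LacZ/+ replicates, so that the arrays of the lines overlapped. The difference was -0.005 with a 95% confidence interval of -0.16 to 0.15 (adjusted p 0.977 in limma). The end of that interval farther from no change is a 1.11-fold change, given the spread between arrays of 1 line. The sign of so small a difference turned under other scalings.

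Psph encodes phosphoserine phosphatase, which releases serine in the last step (Entrez 100678; chromosome 5, 129765558 to 129787443). Psph had a log2 signal of 7.91, 7.86 and 7.61 in wild type and 7.33, 7.32 and 7.42 in the Sox10LacZ/+ line. The Sox10LacZ/+ arrays all lay lower, opposite in direction to Phgdh. The log2 difference was -0.43 (SE 0.10, 95% confidence interval -0.66 to -0.21, adjusted p 0.0205). Psph did not pass without wild-type replicate 1 (adjusted p 0.0725) or without Sox10LacZ/+ replicate 1, 2 or 3 (0.0849, 0.0851 and 0.0589), with differences from -0.53 to -0.38 over all arrays left out.

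**Figure D2:**
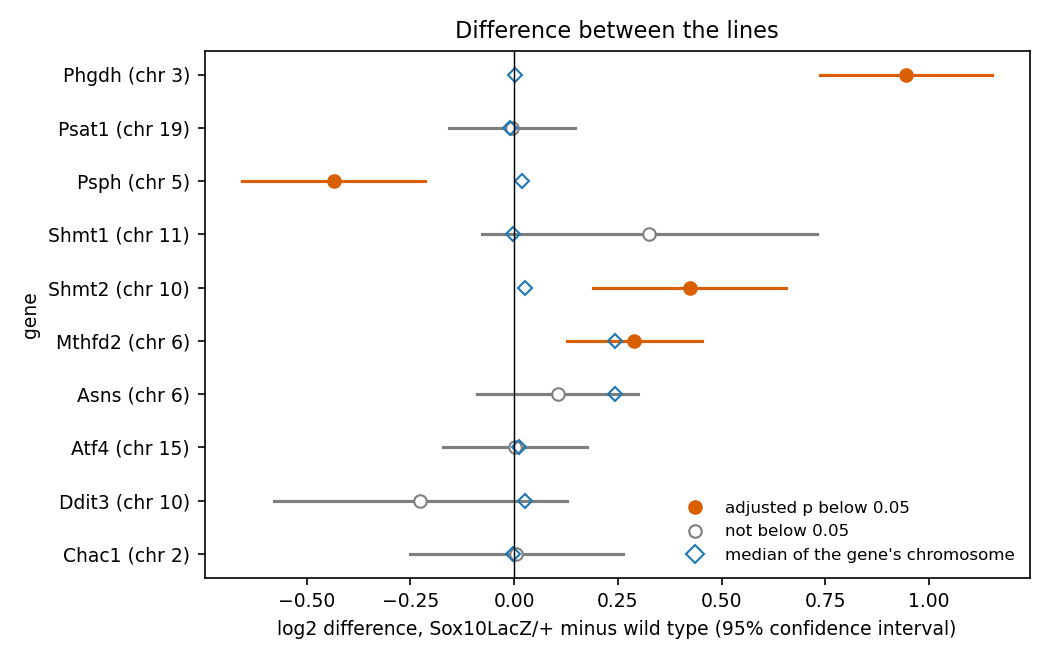
Log2 difference, Sox10LacZ/+ minus wild type (horizontal axis), with its 95% confidence interval for each of the 10 genes; filled orange points passed at an adjusted p below 0.05, open grey points did not, and blue diamonds mark the median difference of the gene's chromosome. Phgdh stands at 0.94, Psph at -0.43, and the diamond of chromosome 6 at 0.24 lies inside the intervals of Mthfd2 and Asns.

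Serine hydroxymethyltransferases take a carbon unit from serine and hand it to folate, leaving glycine. Shmt2 encodes the mitochondrial enzyme (Entrez 108037; chromosome 10, 127517123 to 127522444). The log2 signal of Shmt2 was 11.15, 11.28 and 10.93 in wild type and 11.48, 11.60 and 11.56 in the Sox10LacZ/+ line. The arrays did not overlap, and the difference was 0.42 (SE 0.10, 95% confidence interval 0.19 to 0.66, adjusted p 0.0288). Shmt2 passed with 1 array left out only when that was wild-type replicate 2 (adjusted p 0.00789); without wild-type replicate 1 or 3 the adjusted p was 0.0760 and 0.0556, and without Sox10LacZ/+ replicate 1, 2 or 3 it was 0.0729, 0.113 and 0.103.

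Shmt1 encodes the cytosolic enzyme (Entrez 20425; chromosome 11, 60788897 to 60811265). Its log2 signal was 7.59, 8.24 and 7.58 in wild type and 8.04, 8.12 and 8.23 in the Sox10LacZ/+ line. Wild-type replicate 2 was the highest of all 6 arrays, 0.66 above the mean of replicates 1 and 3, and with it the lines overlapped. The difference was 0.33 (SE 0.17, 95% confidence interval -0.08 to 0.73, adjusted p 0.307). Without wild-type replicate 2 it was 0.55 and passed (adjusted p 0.0032).

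Both Shmt genes can be set against each other within an array, as the log2 signal of Shmt2 minus that of Shmt1. This value was 3.32 ± 0.27 in wild type and 3.42 ± 0.08 in the Sox10LacZ/+ line (mean ± SD, n = 3 each). The difference of 0.10 gave p = 0.8 in an exact 2-sided permutation test over 20 regroupings, whose smallest possible p is 0.1. A design of this size could not reach 0.05 whatever the values, and without wild-type replicate 2 the sign turned (-0.04).

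Mthfd2 encodes a mitochondrial methylenetetrahydrofolate dehydrogenase and cyclohydrolase, which oxidises the carbon unit that SHMT2 passes on (Entrez 17768; chromosome 6, 83305704 to 83326011). On the log2 scale Mthfd2 had 9.86, 9.96 and 9.89 in wild type and 10.17, 10.23 and 10.19 in the Sox10LacZ/+ line. All Sox10LacZ/+ arrays lay above all wild-type arrays, and the difference was 0.29 (SE 0.07, 95% confidence interval 0.13 to 0.45, adjusted p 0.0310). Genes of chromosome 6 as a whole were higher in this line: 710 brighter genes had a median difference of 0.24, and 33.7% of them passed as higher, while the medians of the other chromosomes with at least 100 such genes lay between -0.03 and 0.03. With the median of each chromosome removed, Mthfd2 differed by 0.05 and did not pass (adjusted p 0.744). It also did not pass without wild-type replicate 1 or 3 (adjusted p 0.0902 and 0.0681) or without Sox10LacZ/+ replicate 1, 2 or 3 (0.0978, 0.124 and 0.112).

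Asns encodes asparagine synthetase, a classic ATF4 target that makes asparagine from aspartate and glutamine (Entrez 27053; chromosome 6, 7675165 to 7693209). It lies 75.6 Mb from Mthfd2 on the same chromosome. Its log2 signal was 10.98, 10.80 and 11.04 in wild type and 11.04, 11.03 and 11.07 in the Sox10LacZ/+ line. The arrays overlapped, and the difference was 0.10 (SE 0.08, 95% confidence interval -0.09 to 0.30, adjusted p 0.514). Its 67 nearest brighter genes had a median difference of 0.35, with 29 of them higher. Measured against the median of chromosome 6, Asns differed by -0.14 and again did not pass (adjusted p 0.366).

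Atf4 encodes the transcription factor at the centre of the response (Entrez 11911; chromosome 15, 80255184 to 80257545). In log2 signal Atf4 had 8.71, 8.58 and 8.56 in wild type and 8.57, 8.63 and 8.66 in the Sox10LacZ/+ line. The values of the lines were interleaved, and the difference was 0.003 with a 95% confidence interval of -0.17 to 0.18 (adjusted p 0.987 in limma). The end of that interval farther from no change is a 1.13-fold change, given the spread between arrays of 1 line. Atf4 lies 1.09 Mb from Sox10, with 32 measured genes between them whose median difference was 0.08. Without wild-type replicate 2 or 3, or Sox10LacZ/+ replicate 2 or 3, the Atf4 difference was slightly negative (-0.03 to 0.05 over all alternatives).

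Ddit3 encodes CHOP, a transcription factor that is induced under lasting stress and promotes cell death (Entrez 13198; chromosome 10, 127290793 to 127296291, 0.221 Mb from Shmt2). Its log2 signal was 8.12, 8.56 and 7.90 in wild type and 7.97, 7.99 and 7.94 in the Sox10LacZ/+ line. The Sox10LacZ/+ arrays lay within 0.05 of each other and inside the wild-type range of 0.66. The difference was -0.23 (SE 0.15, 95% confidence interval -0.58 to 0.13, adjusted p 0.428), and without wild-type replicate 2 it was -0.04 (adjusted p 0.790).

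Chac1 encodes an enzyme that degrades glutathione and is induced downstream of ATF4 and CHOP (Entrez 69065; chromosome 2, 119351242 to 119354326). The Chac1 signal (log2) was 7.99, 8.30 and 7.90 in wild type and 8.05, 8.11 and 8.04 in the Sox10LacZ/+ line. As for Shmt1 and Ddit3, wild-type replicate 2 was the highest array, 0.36 above the mean of replicates 1 and 3. The difference was 0.01 (SE 0.11, 95% confidence interval -0.25 to 0.26, adjusted p 0.984). Without wild-type replicate 1 or 3, or Sox10LacZ/+ replicate 2, it was negative (-0.08 to 0.13 with any 1 array left out).

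For 8 of the 10 genes wild-type replicate 2 exceeded the mean of replicates 1 and 3 (median 0.10), and the wild-type SD exceeded that of the Sox10LacZ/+ line in 9 of 10. In 4 of the 10 genes, those that passed, no array of one line lay within the range of the other, against 31.6% of all genes. Without wild-type replicate 2, 4 of the 10 genes were higher and 1 lower, Shmt1 being added, while the count over all genes went from 2967 to 4222. Without wild-type replicate 3, 2 passed (Phgdh and Psph) and 2430 of all genes. Without wild-type replicate 1, 1 passed (Phgdh) and 2116 of all genes; without Sox10LacZ/+ replicate 1, 2 or 3, Phgdh alone passed and 1817, 1780 and 1768 of all genes. The count of the 10 genes thus went up and down with that of all genes.

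**Figure D3:**
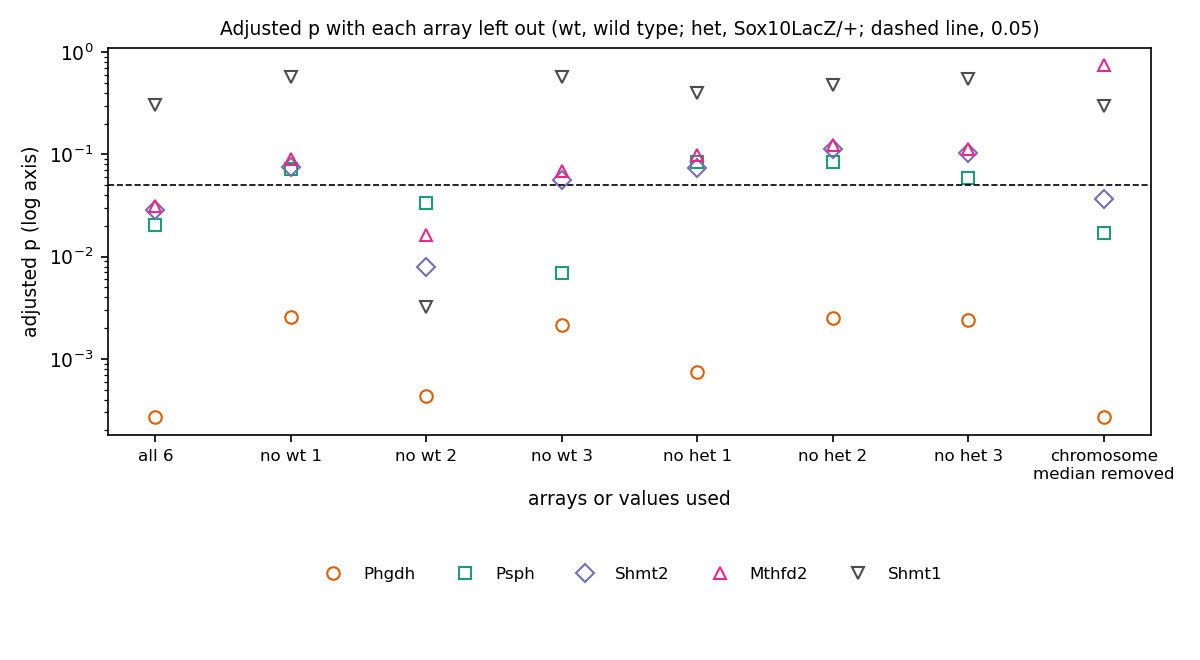
Adjusted p (log axis) of Phgdh, Psph, Shmt2, Mthfd2 and Shmt1 with all 6 arrays, with each array left out (wt, wild type; het, Sox10LacZ/+) and with each chromosome's median difference removed; the dashed line is 0.05. Phgdh stays below the line throughout, Shmt1 falls below it without wild-type replicate 2, and Mthfd2 rises to 0.744 once the median of chromosome 6 is removed.

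The genes whose signal followed Phgdh most closely over the 6 arrays were Trps1 (Pearson r 0.9998), Pawr (r 0.999) and Thg1l (r 0.997). They are named as a description only, since 6 arrays in 2 groups give high correlations to many genes: 872 had an r above 0.95 with Phgdh.

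Around the 10 genes, other genes of serine, glycine and folate metabolism were lower wherever they passed: among 25, limma called 4 lower and 0 higher (2 were higher at an unadjusted p below 0.05), and the median was 0.04. The share called was 16.0%, against 13.4% of all genes and 18.7% of the genes above the 40th percentile of signal. Both figures are to be set beside each list that follows. Aldh1l2, a mitochondrial formyltetrahydrofolate dehydrogenase gene, fell from 8.75 ± 0.36 to 7.89 ± 0.11 (difference -0.86, SE 0.17, adjusted p 0.0125). Mthfd1l, whose enzyme releases formate in mitochondria, fell from 10.64 ± 0.17 to 9.99 ± 0.02 (-0.66, SE 0.10, adjusted p 0.0028). Slc46a1, a proton-coupled folate transporter gene, differed by -0.65 (SE 0.07), and Sfxn3, of the sideroflexin family of mitochondrial carriers, by -0.63 (SE 0.12). Mthfd1, the cytosolic counterpart of Mthfd1l, singled out after its value was seen, differed by -0.13 (adjusted p 0.783), and by 0.13 without wild-type replicate 2. Aldh1l2 did not pass without Sox10LacZ/+ replicate 1 or 2 (adjusted p 0.0582 and 0.0506); without wild-type replicate 2 the list numbered 2 higher and 5 lower.

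Further ATF4 and CHOP response genes went both up and down: among 26, the test called 3 higher and 5 lower, and left 18 uncalled (30.8% called, median 0.02). Tnfrsf10b, a death receptor gene induced by CHOP, fell from 10.06 ± 0.15 to 8.10 ± 0.15 (-1.96, SE 0.11, adjusted p 1.2e-05). Gpt2, a mitochondrial alanine aminotransferase gene, fell from 9.38 ± 0.08 to 8.30 ± 0.06 (-1.08, SE 0.08). Atf3, a stress-induced transcription factor gene, differed by -0.88 (SE 0.21, adjusted p 0.0269), whereas Vldlr, a lipoprotein receptor gene, rose from 6.20 ± 0.44 to 7.92 ± 0.03 (1.72, SE 0.19, adjusted p 0.000667). Named after their values were seen, Chac2, the paralogue of Chac1, rose by 0.73 (adjusted p 0.00058), Pck2, a mitochondrial carboxykinase gene, by 0.41 (adjusted p 0.00925), Bcl2l11 differed by -0.77 (adjusted p 0.0245) and Trib3, a feedback inhibitor gene of ATF4, by -0.31 (adjusted p 0.0333). Sesn2 (-0.28, adjusted p 0.192) and Ppp1r15a (-0.15, adjusted p 0.273), also named after their values were seen, did not pass. Trib3 lost its call with median centring (adjusted p 0.0650) and quantile normalization (0.0626). Atf3, Bcl2l11 and Trib3 passed with 1 array left out only when that was wild-type replicate 2 (adjusted p up to 0.104, 0.0942 and 0.135 without any other), and Pck2 did not pass without Sox10LacZ/+ replicate 3 (0.0540). The list numbered 10 that passed without wild-type replicate 2, 6 without wild-type replicate 3, 5 without wild-type replicate 1 or Sox10LacZ/+ replicate 1 or 2, and 4 without Sox10LacZ/+ replicate 3.

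Upstream, of 19 genes for eIF2 kinases, eIF2, its exchange factor and their regulators, 2 were higher, 2 lower (21.1% in all) and 15 did not pass (median -0.02). Eif2ak4, which encodes the amino acid sensor GCN2, had 8.07, 7.91 and 8.01 in wild type and rose to 8.59, 8.55 and 8.56 in the Sox10LacZ/+ line (difference 0.57, SE 0.07, adjusted p 0.0016) and passed with any 1 array left out. Eif2b2 (0.28) and Eif2b4 (-0.29), subunits of the same exchange factor, and Oma1 (-0.32), a mitochondrial protease gene, each passed with 1 array left out only when that was wild-type replicate 2 (adjusted p up to 0.135, 0.133 and 0.165 without any other), so that 1 gene of the list passed without any other single array. Median centring ended the calls of Eif2b4 (0.0581) and Oma1 (0.0655). Eif2ak3, the PERK kinase gene on chromosome 6, named after its value was seen, differed by 0.10 (adjusted p 0.542; -0.14 with the chromosome median removed).

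Of 18 cytosolic aminoacyl-tRNA synthetase genes, many of which ATF4 can induce, 1 rose, 1 fell (11.1% in all) and 16 did not pass (median -0.02). Gars, the glycyl-tRNA synthetase gene on chromosome 6, rose by 0.49 (SE 0.07, adjusted p 0.0029); with the chromosome median removed it differed by 0.24 (adjusted p 0.0609). Wars, the tryptophanyl-tRNA synthetase gene, differed by -0.35 (SE 0.08, adjusted p 0.0243) and did not pass without wild-type replicate 1 (adjusted p 0.0703) or Sox10LacZ/+ replicate 1, 2 or 3 (0.0940, 0.0665 and 0.108), each of which left 1 synthetase gene. Of 9 amino acid transporter genes known as ATF4 targets, Slc7a3, a cationic amino acid transporter gene, fell (-0.38, adjusted p 0.0472), 0 rose in limma (2 were higher at an unadjusted p below 0.05) and 8 did not pass (11.1% called); the signal of Slc7a3 lay below the 40th percentile in both lines, and it passed with 1 array left out only when that was wild-type replicate 2 (adjusted p from 0.0756 to 0.17 without any other); median centring (0.0605), quantile normalization (0.0660) and the chromosome median removed (0.0638) also ended its call. Slc7a11, the cystine exchanger gene, named after its value was seen, had 6.54, 7.70 and 6.36 in wild type and 7.11, 7.27 and 7.26 in the Sox10LacZ/+ line; it differed by 0.35 (adjusted p 0.561), and by 0.77 without wild-type replicate 2, its highest array (adjusted p 0.00122).

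Chaperones of the endoplasmic reticulum and the ATF6 and XBP1 branches of the unfolded protein response numbered 22, of which 1 was higher, 1 lower (9.09% in all) and 20 did not pass (median -0.01). Creb3l2, a membrane-bound transcription factor gene on chromosome 6, rose by 0.53 (SE 0.10, adjusted p 0.0097); it did not pass with the chromosome median removed (0.28, adjusted p 0.104) or without Sox10LacZ/+ replicate 1 (adjusted p 0.0502). Dnajb9, a chaperone gene of the XBP1 branch, differed by -0.51 (SE 0.13, adjusted p 0.0353) and did not pass without wild-type replicate 1 (0.0698) or Sox10LacZ/+ replicate 1, 2 or 3 (0.0955, 0.134 and 0.0886). Hspa5, the main chaperone gene of the compartment, named after its value was seen, had 10.50 in wild type and 10.56 in the Sox10LacZ/+ line and did not pass (0.06, adjusted p 0.690). This list numbered 6 that passed without wild-type replicate 2, 1 without wild-type replicate 1 or Sox10LacZ/+ replicate 2 or 3, and 0 without Sox10LacZ/+ replicate 1.

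Of 17 other regulators of serine synthesis and stress, 3 rose, 1 fell (23.5% in all) and 13 did not pass (median 0.11). Mycn rose from 5.64 ± 0.15 to 6.36 ± 0.07 (0.72, SE 0.10, adjusted p 0.0018) and Myc from 9.30 ± 0.03 to 9.66 ± 0.05 (0.35, SE 0.07, adjusted p 0.0135); both encode growth-promoting factors known to induce serine synthesis genes. Cebpa rose by 0.62 (adjusted p 0.0200) and Cebpd differed by -0.56 (adjusted p 0.0116); C/EBP proteins can pair with ATF4. Mycn passed with any 1 array left out. Myc did not pass without Sox10LacZ/+ replicate 2 or 3 (adjusted p 0.0519 and 0.0757), Cebpd without Sox10LacZ/+ replicate 2 (0.0542), and Cebpa without wild-type replicate 1 or 3 (0.0698 and 0.0576) or Sox10LacZ/+ replicate 2 or 3 (0.0767 and 0.0848). The list numbered 7 that passed without wild-type replicate 2, 1 without Sox10LacZ/+ replicate 2 and 2 without Sox10LacZ/+ replicate 3.

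**Figure D4:**
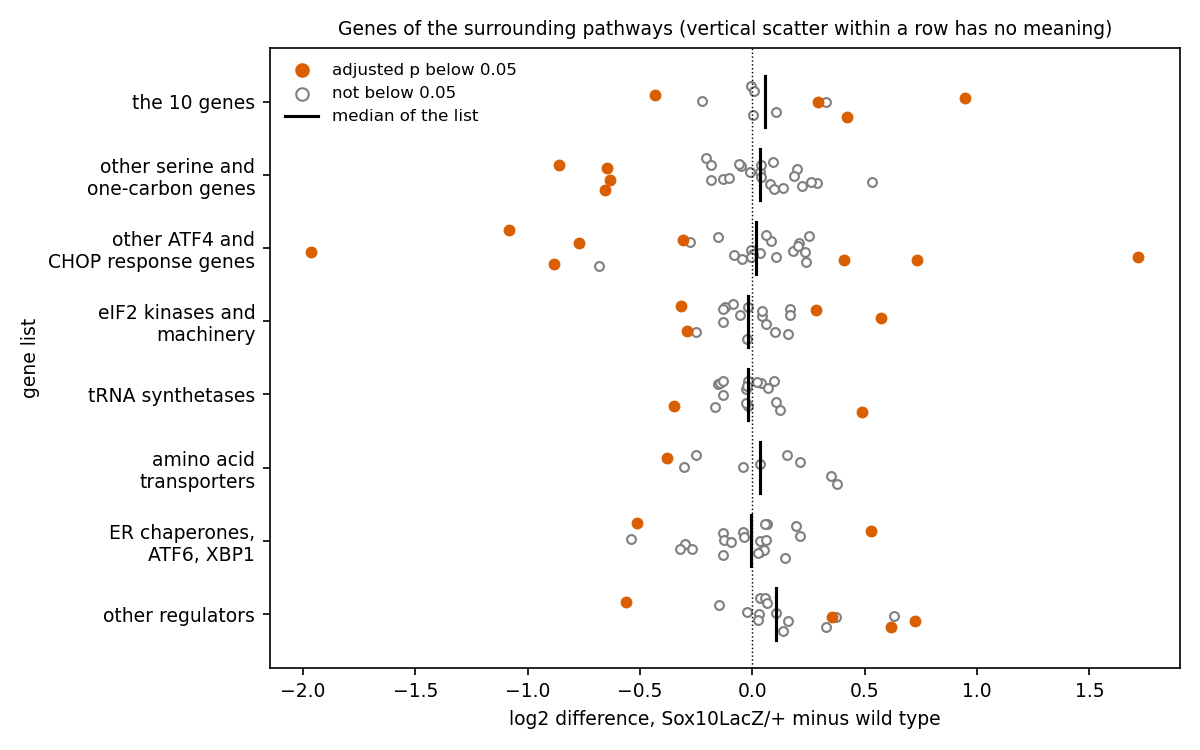
Log2 difference, Sox10LacZ/+ minus wild type (horizontal axis), of the 10 genes and of 7 lists of surrounding genes (1 row each); filled orange points passed at an adjusted p below 0.05, open points did not, and the vertical bar is the median of each row. Medians lie between -0.02 and 0.11. All 4 points that passed among the other serine and one-carbon genes lie below 0, as does the 1 amino acid transporter that passed. In every other row the points that passed fall on both sides of 0.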

How the data were processed

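The deposited table holds log2 signals of 41345 probe sets on 6 arrays, made by the authors with RMA (background correction, normalization between arrays, 1 value per probe set); RMA and Partek are named in the submitters' processing notes, with no version or setting (not given in the sources used here). Values were used without further scaling. Of the probe sets, 23521 carried 1 gene symbol, 1814 several and 16010 none in the platform annotation; 23328 of the first matched the RefSeq table of GRCm38.p6 by Entrez identifier. The brightest probe set by mean over all 6 arrays stood for a gene (22180 genes). A linear model was fitted with limma 3.58.1 under R 4.3.3 (functions lmFit and eBayes, 2-sided, 4 residual and 7.87 total degrees of freedom) on all genes, with Benjamini-Hochberg adjustment and a threshold of 0.05. The fit was tested on simulated data with independent noise and the same spread of a gene in both lines. The simulation did not copy the unequal spread of the data (median SD per gene 0.12 in wild type and 0.08 in the Sox10LacZ/+ line). The number of arrays limits the precision.

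Differences are Sox10LacZ/+ minus wild type. The 10 genes and the gene lists were chosen with earlier results of these data known. From each list up to 4 genes that passed were named, by size of the difference, and any others are marked as named after their values were seen. Of the 7 lists, 136 of 150 listed genes had a probe set with their symbol alone. Medians over a chromosome or over neighbours came from brighter genes, those whose mean signal exceeded the 40th percentile of the probe sets, with up to 50 on each side. Deviations of arrays with the same replicate number did not correlate over all genes (0.007, 0.016 and -0.004). The labels do not say what a number shares, so whether arrays were paired is not known. Alternatives were other scalings, variance priors and array weights, dim genes left out, the mean of probe sets, a replicate block, each array left out and the median of each chromosome removed.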

Additional observations from a re-analysis of the deposited data

How the results depend on the processing

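Among the 10 genes, 4 passed after quantile normalization or median centring, without dim genes, with probe sets averaged, and with the trend or robust variance prior; 5 passed with array weights, 3 with the replicate block, 3 with chromosome medians removed, and between 1 and 5 with each array left out. The count over all genes was 2967 in the main fit and rose to 3942 with array weights. It was 3019 with median centring, 2951 with quantile normalization and 2970 with chromosome medians removed. Phgdh passed under each of its 15 alternatives (adjusted p 0.000157 to 0.00256 in limma). In the replicate block, where Mthfd2 did not pass (adjusted p 0.0782), 1 of the eIF2 machinery genes and 1 of the tRNA synthetase genes passed, and 2512 genes in all against 2967; the labels do not say what a number shares and the deviations did not correlate. The block ended the calls of Trib3 (adjusted p 0.0650), Oma1 (0.0672), Eif2b4 (0.0910), Eif2b2 (0.0857) and Wars (0.0570) too, and for Shmt2 minus Shmt1 it leaves the mean difference (0.10) as it is by construction. Median centring left 2 genes of the eIF2 machinery and 0 amino acid transporters; quantile normalization left 0 transporters. The trend prior gave 3 transporters, with 3157 calls over all genes. Array weights gave 2 transporters and 5 chaperone genes, with 3942 calls over all genes. With chromosome medians removed, 1 synthetase, 0 transporters and 1 chaperone gene passed. With each array left out, the counts ranged from 3 to 7 for other serine and one-carbon genes, 4 to 10 for ATF4 and CHOP response genes, 1 to 5 for the eIF2 machinery, 1 to 2 for synthetases, 0 to 2 for transporters, 0 to 6 for chaperones and 1 to 7 for other regulators, the highest always without wild-type replicate 2 (a count of synthetases shared with wild-type replicate 3 and the full set), and Shmt2 minus Shmt1 from -0.04 to 0.22.

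Signs turned only for genes that did not pass. Psat1 was 0.0241 with median centring, 0.00422 with quantile normalization and 0.004 with the chromosome median removed. Atf4 was -0.0255 with array weights and -0.0084 with the chromosome median removed, and ranged from -0.0245 to 0.0481 with arrays left out. Chac1 was -0.00512 with quantile normalization and ranged from -0.0771 to 0.126 with arrays left out. Asns was -0.14 and Eif2ak3 -0.14 with the median of chromosome 6 removed. Mthfd1 ranged from -0.36 to 0.13 with arrays left out. Where no value here shows it, the cause was not tested. With 3 arrays a line, limma drew the variance of each gene towards a value common to all genes. An interval thus did not follow the gene's own spread alone. The 95% interval ran from -0.08 to 0.73 for Shmt1, the most variable of the 10 genes. For Psat1, the least variable, it ran from -0.16 to 0.15 (SE 0.07). The SDs of Psat1 were only 0.0053 in the Sox10LacZ/+ and 0.0055 in the wild-type line.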
